A study of Homo sapiens with 6 samples.

Results

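The transcripts described here are those of 10 genes of the NRF2 axis, taken by name from the 60624 genes of a table of RNA levels: the activators NFE2L2 and NFE2L1, the inhibitor KEAP1, the repressor BACH1, the small MAF partners MAFF, MAFG and MAFK, and the target genes SRXN1, OSGIN1 and PIR. They were measured by poly(A)-selected RNA-seq in 6 libraries of SV-HUC-1, a human urothelial cell line that was made immortal with SV40. In 3 libraries (control) the cells had received a blank solution, and in the other 3 they had been exposed to 2,6-dichloro-1,4-benzoquinone (DCBQ), a halogenated quinone that forms when drinking water is disinfected, again for 3 days. The concentration is missing from the labels, as is any word on whether the libraries are of separate cultures. The p-values therefore reflect only how these libraries varied, and that spread may be technical. All 10 members passed the filter on low values, a mean of at least 1 TPM (a level scaled for gene length and for the library total).

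NRF2, the protein of NFE2L2, is the main transcription factor of the response to oxidants and electrophiles such as quinones. In unstressed cells KEAP1 holds NRF2 and presents it to the CUL3 ubiquitin ligase for destruction, and electrophiles that modify cysteines of KEAP1 let NRF2 accumulate. NRF2 and its relative NRF1 (the protein of NFE2L1) bind antioxidant response elements as dimers with a small MAF protein, and BACH1 takes the same partners and sites to repress. NRF2 is controlled largely at the protein level, which RNA-seq does not measure.

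To show what lies at the starts of these genes, the RefSeq promoter windows (GRCh38.p14, 250 bases before to 50 after a start) were searched on both strands for the core of the antioxidant response element, TGACNNNGC, and for TGAGTCA, the core shared by MAF and AP-1 sites. The motifs can overlap. Of the 10 members 9 had a window, 15 windows in all. TGACNNNGC was found in 3 of the 15 windows, against 13.3% of all 35116 windows, and TGAGTCA in 3 of the 15, against 4.95% of all. The matches, in capitals with 10 bases on each side, read 5′ to 3′ on the gene's strand.
OSGIN1, first matched base 97 before the start, chr16:83953133-83953159, plus strand, TGAGTCA on the opposite strand: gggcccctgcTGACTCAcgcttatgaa
BACH1, 48 before the start, chr21:29298864-29298890, plus strand, TGAGTCA: gcggaaggagTGAGTCAcctgaccgct
PIR, 27 after the start, chrX:15493289-15493317, minus strand, TGACNNNGC on the opposite strand with TGAGTCA inside it: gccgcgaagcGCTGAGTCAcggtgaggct
KEAP1, 54 before the start, chr19:10502807-10502835, minus strand, TGACNNNGC: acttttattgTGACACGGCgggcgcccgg
KEAP1, 31 before the start, chr19:10502784-10502812, minus strand, TGACNNNGC on the opposite strand: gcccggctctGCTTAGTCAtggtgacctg
MAFF, 122 before the start, chr22:38201862-38201890, plus strand, TGACNNNGC on the opposite strand: cttccaggggGCGGGGTCAtacgggggcg
The windows of NFE2L2, NFE2L1, MAFG and SRXN1 hold neither run of letters. The match of OSGIN1, the target gene with the larger decrease, is shown in the 250 bases before its start (chr16:83952990-83953239, plus strand).
OSGIN1: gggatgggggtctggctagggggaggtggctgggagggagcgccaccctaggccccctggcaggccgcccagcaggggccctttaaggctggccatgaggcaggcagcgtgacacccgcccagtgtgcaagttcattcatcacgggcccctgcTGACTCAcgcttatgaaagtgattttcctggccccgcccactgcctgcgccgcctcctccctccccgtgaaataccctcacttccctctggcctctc
These matches are descriptions of the sequence, and binding was not measured here.

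Between 26874 and 27350 genes were listed above 0 TPM in each library. TPM keep no depth, so it is unknown here. Across the 16734 tested genes, libraries of 1 group correlated at a Pearson r of 0.984 to 0.986 and libraries of different groups at 0.952 to 0.955. The median tested gene differed by -0.21 on the log2(TPM + 1) scale, and mitochondrially encoded genes took 20.9% to 22.2% of the TPM in control and 27.96% to 28.8% in DCBQ. A small decrease and a shift of the scale cannot be told apart. With median-of-ratios scaling, which centres the libraries on each other, the median was -0.00, and each member is therefore given under both scalings. In bulk RNA, fewer cells that express a gene and less of its RNA per cell cannot be told apart. Epithelial markers were abundant in both groups, with a sum over 10 genes of 4415 to 4602 TPM in control and 6089 to 6413 TPM in DCBQ, although the basal factor TP63 was near 0. Fibroblast markers summed to 6.17 to 7.27 TPM in control and 13.9 to 15.9 TPM in DCBQ, all but a trace from COL1A1, with COL1A2, COL3A1, DCN and LUM listed at 0 in all 6 libraries. Leukocyte markers summed to 4.303 to 6.03 and 10.48 to 12.1 TPM, mainly from CD68 and CD14, with LYZ at 0 in all libraries and PTPRC near 0, and endothelial markers to 6.53 to 7.45 and 8.52 to 14.7 TPM, from CDH5 and, in control, KDR, with PECAM1 and VWF near 0. The part of these cell types in the results below was not tested.

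The comparison of DCBQ with control asks how the exposure changed expression in SV-HUC-1 cells. Transcripts of the NRF2 axis were mostly lower after DCBQ. Of the 10 members 8 fell and 1, PIR, rose, while 39.5% of all tested genes were called lower and 13.4% higher (52.9% in either direction). The two-sided test was limma on log2(TPM + 1), with p adjusted over the whole table of tested genes by the Benjamini-Hochberg method, and a call is an adjusted p under 0.05. The median difference of the members was -0.62, against -0.21 over all tested genes. For 8 of the 10 members, all but KEAP1 and MAFK, the control and DCBQ libraries were fully apart, against 61.2% of the tested genes. With median-of-ratios scaling 7 members were called lower and 1 higher, where 23.3% of all genes were lower and 23.9% higher (47.1% in either direction). Quantile normalization gave the same counts of members, with 23.7% of all genes lower and 22.8% higher.

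**Figure D1:**
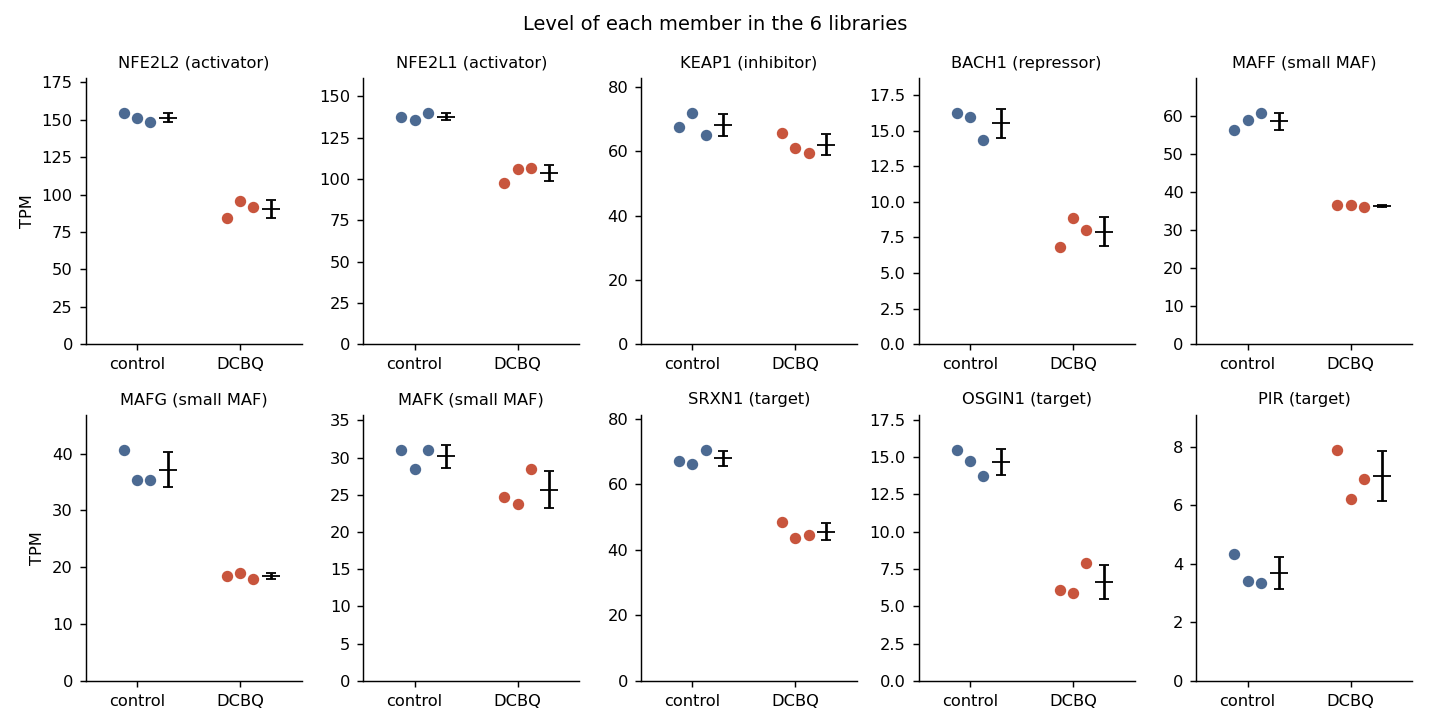
TPM of each of the 10 members in the 3 control and 3 DCBQ libraries (points, in the order of the library numbers) with the mean and SD of each group (bar); every axis starts at 0. All 3 DCBQ libraries lie below all 3 control libraries for 7 members, above them for PIR, and the groups overlap for KEAP1 and MAFK.

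NFE2L2 (chromosome 2, 177227595 to 177392697, minus strand), which encodes NRF2, read 154, 151 and 149 TPM in control libraries 1 to 3 and 84.2, 95.8 and 91.5 TPM in DCBQ libraries 1 to 3. Every DCBQ library lay well below every control library. The mean TPM fell 1.67-fold, from 151 ± 2.9 to 90.5 ± 5.9 TPM (SD, n = 3 per group; log2 difference -0.74, SE 0.055, limma adjusted p = 2.1e-05), and by 0.50 on the log2 scale with median-of-ratios scaling. In GENCODE 29 (GRCh38) 17.6% of its exonic bases are shared with AC019080.1, a locus on the same strand that read 5.16 to 6.42 TPM in control and 0.63 to 1.59 TPM in DCBQ, so reads could be split between them.

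NFE2L1 (chromosome 17, 48048329 to 48061487, plus strand) encodes NRF1, a factor held in the endoplasmic reticulum membrane that drives proteasome genes. It read 137, 136 and 140 TPM in control and 97.7, 106 and 107 TPM in DCBQ. The groups were apart, with a smaller gap than for NFE2L2. The decrease was 1.33-fold (log2 difference -0.41, SE 0.049, limma adjusted p = 0.00023) and shrank to -0.17 with median-of-ratios scaling (adjusted p = 0.012).

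The order of the 2 activators differed between the groups. In control NFE2L2 was the most abundant member, above NFE2L1, and in DCBQ NFE2L1 was above NFE2L2, without overlap in either group. The NFE2L1 to NFE2L2 ratio, which a factor applied to a whole library cannot move, was 0.889, 0.897 and 0.941 in control and 1.16, 1.11 and 1.17 in DCBQ. The difference of 0.33 in the log2 ratio had an exact two-sided permutation p of 0.1 (n = 3 per group), the smallest that 3 against 3 libraries can give. Over the 7 within-library quantities tested by exact permutation, Benjamini-Hochberg adjustment gave p = 0.117.

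KEAP1 (chromosome 19, 10486120 to 10503741, minus strand), the sensor and inhibitor of NRF2, was the member with the smallest difference as deposited, while MAFK had the smallest with both other scalings. KEAP1 read 67.4, 71.8 and 65.1 TPM in control and 65.6, 61.0 and 59.3 TPM in DCBQ. The highest DCBQ library lay above the lowest control library. The log2 difference of -0.13 (95% interval -0.27 to 0.01, limma adjusted p = 0.096) did not pass. It did pass without DCBQ library 1 (-0.17, limma adjusted p = 0.047), and it was 0.10 with median-of-ratios scaling and 0.053 with quantile normalization, not called in either. KEAP1 was close to SRXN1 in control (68.1 ± 3.4 and 67.9 ± 2.3 TPM, overlapping) and above it in DCBQ (61.98 ± 3.2 and 45.5 ± 2.5 TPM, apart).

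The KEAP1 to NFE2L2 ratio was higher in every DCBQ library than in any control library. It was 0.436, 0.474 and 0.438 in control and 0.779, 0.637 and 0.648 in DCBQ. The log2 ratio differed by 0.61 without overlap (exact two-sided permutation p = 0.1, n = 3 per group, p = 0.117 adjusted over the 7 quantities). DCBQ library 1 had the highest ratio, and without it the difference was 0.52.

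BACH1 (chromosome 21, 29194071 to 29630751, plus strand), the haem-sensing repressor of antioxidant response elements, was among the less abundant members. It read 16.2, 15.9 and 14.4 TPM in control and 6.85, 8.86 and 7.99 TPM in DCBQ. No DCBQ library reached the level of a control library. The mean fell 1.96-fold (log2 difference -0.90, SE 0.11, limma adjusted p = 0.00027), and by 0.67 on the log2 scale with median-of-ratios scaling. The BACH1 to NFE2L2 ratio was 0.105, 0.105 and 0.0966 in control and 0.0813, 0.0925 and 0.0873 in DCBQ, and lower in every DCBQ library (log2 ratio difference -0.23, exact two-sided permutation p = 0.1, n = 3 per group, p = 0.117 adjusted over the 7 quantities).

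**Figure D2:**
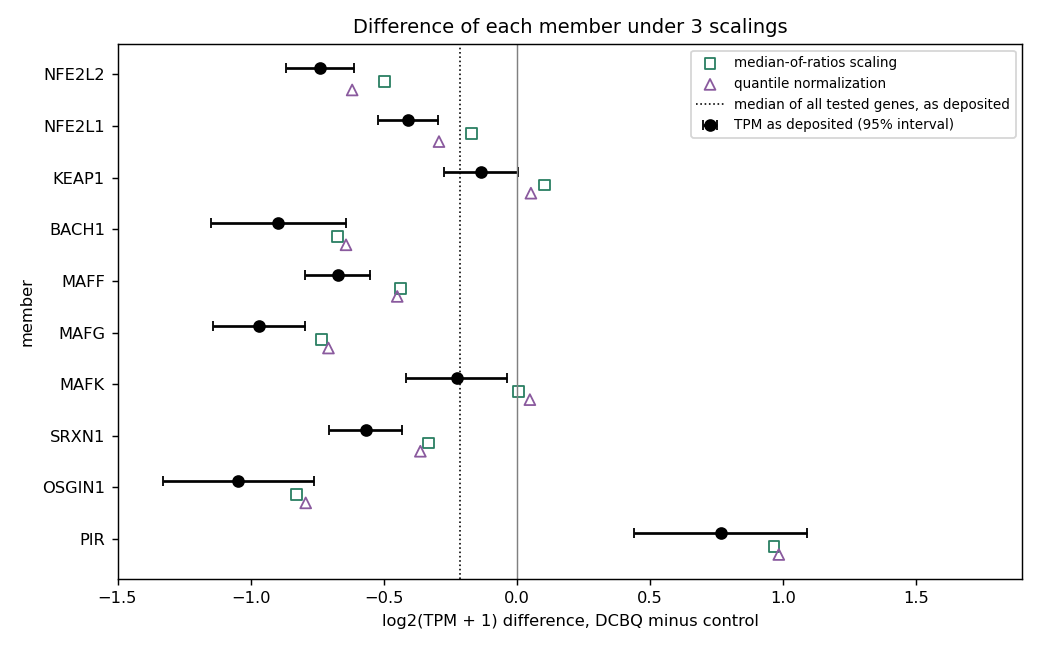
Difference of each member between DCBQ and control on the log2(TPM + 1) scale, with TPM as deposited (filled circles with the 95% interval of the limma fit), after median-of-ratios scaling (squares) and after quantile normalization (triangles); the dotted line is the median of all tested genes as deposited, -0.21. KEAP1 and MAFK move from below 0 to above 0 with both other scalings, and the other 8 members keep their side of 0.

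The small MAF proteins have a DNA-binding domain but no activation domain of their own, and serve NRF2, NRF1 and BACH1 alike. MAFF (chromosome 22, 38200767 to 38216511, plus strand) was the most abundant of them, with 56.3, 58.9 and 60.8 TPM in control and 36.6, 36.5 and 36.1 TPM in DCBQ. The DCBQ libraries were almost the same as each other and far below control. MAFF fell 1.61-fold (log2 difference -0.67, SE 0.053, limma adjusted p = 2.7e-05) and by 0.44 on the log2 scale with median-of-ratios scaling.

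MAFG (chromosome 17, 81918270 to 81927714, minus strand) read 40.7, 35.3 and 35.4 TPM in control and 18.5, 19.1 and 17.9 TPM in DCBQ. Control library 1 stood above the other two, and all 3 were far above DCBQ. MAFG had the largest decrease of the regulators, 2.01-fold (log2 difference -0.97, SE 0.076, limma adjusted p = 2.5e-05), and fell by 0.74 on the log2 scale with median-of-ratios scaling. The neighbouring SIRT7, which shares 2.01% of the exonic bases of MAFG on the same strand, read 29.3 to 33.6 TPM in control and 32.5 to 36.3 TPM in DCBQ.

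MAFK (chromosome 7, 1530714 to 1543043, plus strand) read 31.0, 28.4 and 31.0 TPM in control and 24.7, 23.8 and 28.5 TPM in DCBQ. DCBQ library 3 lay inside the control range. The log2 difference of -0.23 (SE 0.083) only just passed with an adjusted p of 0.049 (limma), and it turned to 0.0079 with median-of-ratios scaling and 0.049 with quantile normalization, without a call in either. Leaving out any 1 library other than DCBQ library 3 also ended the call (limma adjusted p = 0.053 to 0.13, against 0.018 without DCBQ library 3). Of its exonic bases 18.1% are shared with TMEM184A on the opposite strand, which read 23.5 to 23.9 TPM in control and 8.96 to 9.58 TPM in DCBQ. The use of strand in the counting is not given in the sources used here, so reads of the 2 genes cannot be told apart, and their part in the difference of MAFK was not tested.

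Together the small MAF transcripts summed to 126 ± 2.9 TPM in control and 80.6 ± 1.7 TPM in DCBQ (exact two-sided permutation p = 0.1, n = 3 per group, p = 0.117 adjusted over the 7 quantities). Unlike the ratios and shares, this sum moves with a factor applied to a whole library, and it is given only as deposited. Median-of-ratios scaling divides control libraries by 1.09 to 1.11 and DCBQ libraries by 0.89 to 0.96, which makes the gap smaller. MAFG had a smaller and MAFK a larger share of this sum in every DCBQ library than in any control library. MAFG made up 31.8%, 28.8% and 27.8% of the sum in control and 23.1%, 24.0% and 21.7% in DCBQ, a difference of -6.55 percentage points. MAFK made up 24.2%, 23.2% and 24.4% in control and 31.0%, 30.0% and 34.5% in DCBQ, a difference of 7.92 percentage points. Both had the smallest possible p (exact two-sided permutation p = 0.1 for both, n = 3 per group, p = 0.117 adjusted over the 7 quantities). The share of MAFF overlapped, at 46.6% ± 2.3 in control and 45.2% ± 1.2 in DCBQ (exact permutation p = 0.4, n = 3 per group, adjusted p = 0.4). In control MAFG was above MAFK in every library, and in DCBQ MAFK was above MAFG in every library.

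**Figure D3:**
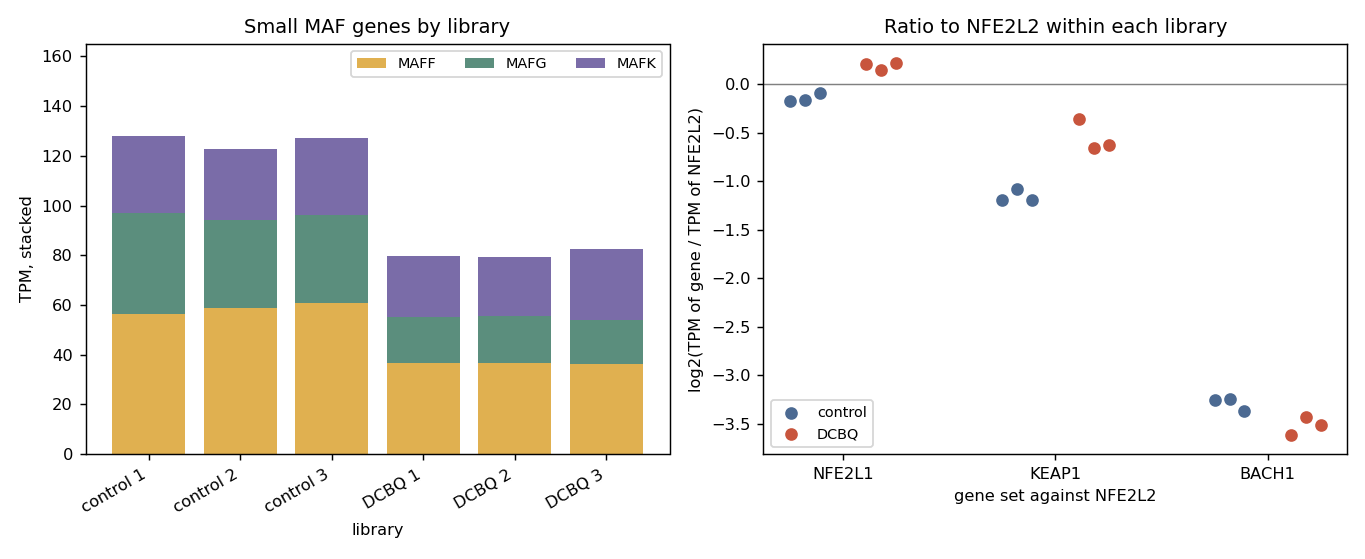
Left, TPM of MAFF, MAFG and MAFK stacked for each of the 6 libraries. Right, log2 of the ratio of NFE2L1, KEAP1 and BACH1 to NFE2L2 in each library, where a value of 0 means equal TPM. The MAF sum is about 80 TPM in each DCBQ library and the 3 ratios are apart between the groups, higher in DCBQ for NFE2L1 and KEAP1 and lower for BACH1.

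The 3 target genes did not move together. SRXN1 (chromosome 20, 646615 to 653370, minus strand) encodes sulfiredoxin, which repairs over-oxidised peroxiredoxins. It read 67.2, 66.1 and 70.5 TPM in control and 48.4, 43.6 and 44.6 TPM in DCBQ. The groups were clearly apart. SRXN1 fell 1.49-fold (log2 difference -0.57, SE 0.059, limma adjusted p = 0.00011) and by 0.33 on the log2 scale with median-of-ratios scaling (adjusted p = 0.0069). Of its exonic bases 85.0% are also annotated to AL121758.1, a locus on the same strand listed at 0 to 0.046 TPM.

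OSGIN1 (chromosome 16, 83948282 to 83966332, plus strand), a stress-induced growth inhibitor gene, read 15.5, 14.7 and 13.7 TPM in control and 6.08, 5.86 and 7.93 TPM in DCBQ. DCBQ library 3 was the highest of its group and still far below control. OSGIN1 fell 2.21-fold (log2 difference -1.05, SE 0.12, limma adjusted p = 0.00021), and by 0.83 on the log2 scale with median-of-ratios scaling. This was the largest decrease of the 10 members as deposited, but MAFG had a larger one with a pseudocount of 5 (-0.84 against -0.76), with array weights (-0.99 against -0.95) and without DCBQ library 2 (-0.99 against -0.98). Of all tested genes, 4.85% had a more negative difference. OSGIN1 shares 13.9% of its exonic bases with AC009119.2, a locus on the same strand without listed TPM.

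PIR (chromosome X, 15384799 to 15493564, minus strand) encodes pirin, an iron-binding nuclear protein. It was the least abundant member in control, with 4.34, 3.43 and 3.35 TPM, and read 7.90, 6.21 and 6.89 TPM in DCBQ. Every DCBQ library lay above every control library. PIR rose 1.89-fold (log2 difference 0.77, SE 0.14, limma adjusted p = 0.0022), and by 0.97 on the log2 scale with median-of-ratios scaling. In DCBQ its level overlapped those of BACH1 and OSGIN1 (7.002 ± 0.85, 7.90 ± 1.0 and 6.62 ± 1.1 TPM), whereas in control it lay far below both. Of the 3 members with the TGAGTCA core in the windows shown above, OSGIN1 (97 bases before the start) and BACH1 (48 before) fell and PIR (29 after) rose. The match of BACH1 lies in only 1 of its windows, and which start these cells used was not tested.

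The relatives of these factors were scarce, with 1 exception. NFE2L3, the third NRF factor, read 57.5 ± 1.2 TPM in control and 50.9 ± 1.4 in DCBQ (log2 difference -0.17, limma adjusted p = 0.020). This turned to 0.065 with median-of-ratios scaling, where it was not called. NFE2, the founding member of the family and a factor of blood cells, read 0.55, 0.28 and 0.41 TPM in control and 1.16, 2.59 and 1.99 TPM in DCBQ. It passed the filter only through the DCBQ libraries, where it was high, so its difference is given without a test. BACH2, MAF, MAFA and NRL were below the filter, with 1.21, 0.178, 1.00 and 1.09 TPM on average in control and 0.564, 0.385, 0.436 and 0.665 TPM in DCBQ.

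The counts for the gene lists below stand against the shares of all tested genes, which were 13.4% higher and 39.5% lower as deposited (median -0.21) and 23.9% and 23.3% with median-of-ratios scaling (median -0.00). For the KEAP1-CUL3 ligase and other binders of KEAP1 or NRF2, 5 of 15 tested genes (33.3%) were higher and 5 (33.3%) lower, with a median of -0.09. With median-of-ratios scaling the calls were 8 (53.3%) up and 2 (13.3%) down. SQSTM1, the autophagy receptor p62 that competes with NRF2 for KEAP1 and is itself an NRF2 target, fell 2.12-fold, from 476, 450 and 476 TPM to 225, 213 and 223 TPM (limma adjusted p = 8.7e-07). The peptidase gene DPP3, whose product also binds KEAP1, rose 1.62-fold to 42.2 ± 0.78 TPM, and PTMA, which encodes the nuclear protein prothymosin alpha, 1.29-fold. RBX1, the RING subunit of the ligase, rose 1.57-fold to 66.9 ± 5.1 TPM, while the scaffold CUL3 had 34.98 ± 1.3 and 31.6 ± 2.1 TPM (limma adjusted p = 0.11).

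NRF2 can also be destroyed without KEAP1, after phosphorylation by GSK3 and recognition by a beta-TrCP ligase, or by the ligase HRD1 of the endoplasmic reticulum. The 13 tested genes of turnover without KEAP1 also include genes of a CUL4 ligase, other kinases and a deubiquitinase. Of the GSK3, beta-TrCP and HRD1 genes, SKP1 was called higher and GSK3A, GSK3B, FBXW11 and SYVN1 lower. Of all 13, 5 (38.5%) were higher and 5 (38.5%) lower, with a median of -0.18. The share of lower genes was near the 39.5% of all tested genes, while the share of higher genes was above their 13.4%. With median-of-ratios scaling the calls were 6 (46.2%) up and 3 (23.1%) down. GSK3B fell 2.104-fold, from 56.3, 57.7 and 56.9 TPM to 24.3, 29.4 and 27.5 TPM (limma adjusted p = 1.7e-05). FBXW11, which encodes a beta-TrCP protein, fell 1.72-fold to 45.0 ± 5.1 TPM, and SYVN1, which encodes HRD1, 1.57-fold to 60.3 ± 1.2 TPM. The deubiquitinase gene USP11 rose 1.29-fold to 104 ± 5.1 TPM. SKP1, the adaptor of the beta-TrCP ligase, had the largest increase of this list as deposited, from 62.5, 58.5 and 60.5 TPM to 126, 76.6 and 131 TPM (1.84-fold, limma adjusted p = 0.0052), with DCBQ library 2 well below the other two. BTRC, which encodes the other beta-TrCP protein, had 12.3 ± 0.64 and 10.8 ± 0.60 TPM (limma adjusted p = 0.13). The decreases of GSK3B, FBXW11 and SYVN1 and the increase of USP11 were also called with median-of-ratios scaling, but the decrease of GSK3A was not.

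NRF1 is pulled from the endoplasmic reticulum by the ATPase p97 and then cut and deglycosylated before it can act. Of 11 tested genes of this processing and turnover 1 (9.09%) was higher and 5 (45.5%) lower, with a median of -0.21, which is also that of all tested genes. With median-of-ratios scaling the calls were 2 (18.2%) up and 4 (36.4%) down. VCP, which encodes p97, was the 1 that rose, 1.95-fold, from 88.4, 81.0 and 80.7 TPM to 162, 163 and 162 TPM (limma adjusted p = 2.9e-06). SEL1L, the partner of HRD1, fell 1.65-fold to 26.6 ± 3.1 TPM and the glycosyltransferase gene OGT 1.43-fold to 105 ± 9.3 TPM. Among 31 tested genes of the proteasome and its assembly, the known targets of NRF1, 22 (71.0%) rose and 0 fell as deposited, with a median of 0.27, where 13.4% of all tested genes were higher and the median was -0.21. The 9 that did not pass lay between -0.09 and 0.10, and with median-of-ratios scaling 29 (93.5%) rose and 0 fell, against 23.9% of all genes higher. The core subunit genes PSMA2, PSMA3 and PSMA5 rose 1.57-fold, 1.48-fold and 1.57-fold and the assembly factor gene POMP 1.61-fold. PSMB3 was listed at 0 in 5 of the 6 libraries and was not tested.

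For BACH1 turnover, 0 of 4 tested genes were higher and 2 (50%) lower as deposited (limma; 2 at an unadjusted p under 0.05), where 39.5% of all tested genes were lower, and 1 was higher and 1 lower with median-of-ratios scaling. FBXO22, the subunit of a ligase that destroys BACH1, fell 1.504-fold, from 16.7, 16.6 and 16.4 TPM to 10.1, 11.8 and 11.2 TPM (limma adjusted p = 0.00090). The deubiquitinase gene USP47 fell 1.29-fold as deposited, a call lost with median-of-ratios scaling. FBXL17 (log2 difference -0.19) and the nuclear exporter XPO1 (0.12) did not pass as deposited, and XPO1 was the gene called higher with median-of-ratios scaling (0.36).

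Among 15 tested nuclear partners and coregulators of NRF2, 2 (13.3%) were higher and 7 (46.7%) lower, with a median of -0.18, which is near the 13.4% and 39.5% of all tested genes. With median-of-ratios scaling the calls were 3 (20%) up and 5 (33.3%) down. The coactivator CREBBP, an acetyltransferase that acetylates NRF2, fell 2.07-fold to 52.1 ± 5.2 TPM. The AP-1 factor JUND fell 1.59-fold to 81.5 ± 8.9 TPM. ATF4, a stress factor that shares targets with NRF2, had the largest decrease of this group, from 886, 705 and 768 TPM to 235, 228 and 233 TPM (3.39-fold, limma adjusted p = 1.3e-06).

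Other target genes of NRF2 also went both ways. Of 40 listed genes 32 were tested, with 11 (34.4%) called higher, 13 (40.6%) called lower and 8 without a call (median -0.04), where 13.4% of all tested genes were higher and 39.5% lower. With median-of-ratios scaling the majority turned, with 13 (40.6%) higher and 8 (25%) lower. HMOX1, the haem oxygenase that BACH1 represses, went from 316, 338 and 344 TPM in control to 58.1, 55.6 and 61.4 TPM in DCBQ, so its transcript and that of its repressor were both lower. SLC7A11, the cystine transporter, went from 41.5, 40.4 and 37.7 TPM to 2.46, 2.44 and 2.80 TPM, and SESN2 from 79.3, 72.4 and 76.4 TPM to 12.8, 14.03 and 13.99 TPM. Both are known targets of ATF4 as well as of NRF2. TXNRD1, which reduces thioredoxin, went from 275, 280 and 269 TPM to 96.4, 98.2 and 101 TPM. The differences of HMOX1, SLC7A11, SESN2 and TXNRD1 were -2.49, -3.52, -2.40 and -1.47 on the log2 scale, against -0.57 for SRXN1 and -1.05 for OSGIN1. On the other side stood the carbonyl reductase genes CBR3 and CBR1 (log2 differences 1.40 and 0.87), the peroxiredoxin gene PRDX1 (1.57) and the thioredoxin gene TXN (0.72), all higher. The quinone reductase gene NQO1 rose less, 1.18-fold from 149 ± 4.8 to 175 ± 4.8 TPM (log2 difference 0.23, limma adjusted p = 0.0027). The glutathione synthesis gene GCLC fell slightly as deposited (-0.32), a call lost with median-of-ratios scaling, and its partner GCLM did not pass (-0.04, and 0.24 with a call under quantile normalization).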

How the data were processed

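The authors deposited 1 table of TPM for 60624 Ensembl identifiers in 6 libraries. The submitters' processing notes name hg38, StringTie 2.1.7, HISAT2 2.2.1, DESeq2 1.34.0, Trimmomatic 0.38 and FastQC. Which tool gave the TPM, with what annotation and use of strand, is not given in the sources used here. DNA methylation data of the wider study were not analysed here. Each column name matched 1 library's labels, and no libraries were identical. A table of gene names and GENCODE 29 gave 41235 identifiers a symbol, and GENCODE 29 gave 58437 their coordinates.

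Genes with a mean of at least 1 TPM were tested on log2(TPM + 1), a scale that understates changes of low genes, with limma 3.58.1 in R 4.3.3 (lmFit, eBayes with a trend, group as the only term). Fold changes without "log2" are ratios of mean TPM. Within-library ratios and shares were compared by exact permutation over 20 labellings. On simulated data for this comparison (16734 genes), 50 genes were changed by 2, 100 by 1 and 50 by 0.5 (log2). Of these, 90%, 80% and 40% were recovered, and 10 of 155 calls fell on unchanged genes. Far more genes, 52.9%, were called in the real data, so these rates need not hold there.

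The members and gene lists were chosen with earlier results of these data known. Text genes are the members, the 4 members of each list with the smallest p, all relatives of the factors, and the 3 genes nearest in pattern to NFE2L2 and to SRXN1; some of these are not reported here. AC019080.1, AL121758.1, SIRT7, TMEM184A, CUL3, SKP1, BTRC, GSK3A, PSMB3, CBR1, CBR3, PRDX1, TXN, NQO1, GCLC, GCLM, LUCAT1, NMRAL2P and markers outside this rule were chosen after their values were seen. WDR1 and RAC3, which had entered lists in error, were removed after values were seen, and 1 listed name had no match. The alternatives were pseudocounts of 0.1 and 5, no filter or a minimum of 5 TPM, quantile normalization, median-of-ratios scaling, rescaling without mitochondrially encoded genes, eBayes without trend or robust, array weights, a replicate block, and each library left out.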

Additional observations from a re-analysis of the deposited data

How the results depend on the processing

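Across 17 alternatives the differences of NFE2L2, NFE2L1, BACH1, MAFF, MAFG, SRXN1, OSGIN1 and PIR kept their direction and their call. KEAP1 turned to 0.053 under quantile normalization and 0.10 under median-of-ratios scaling, not called in either, and was called lower in 2 alternatives, with array weights (-0.16) and without DCBQ replicate 1 (-0.17). MAFK turned to 0.049 and 0.0079 under the same scalings and was called in 6 of the 17. The number of members called was 1 higher in every alternative and 7 to 8 lower with a library left out. Over all genes, 3814 were higher and 3966 lower under quantile normalization, and 3984 and 3881 under median-of-ratios scaling, against 2247 and 6610 as deposited; both scalings centre the libraries by construction. Leaving out a library gave 1883 to 2123 higher and 5675 to 6443 lower. The 7 within-library quantities kept their direction in all 8 alternatives each, though none could reach an adjusted p under 0.05, and the share of MAFF ranged from -2.68 percentage points (without control library 1) to -0.66 (without DCBQ library 3).

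Same-numbered libraries of the groups did not clearly deviate together (correlations of -0.04, 0.05 and 0.05 across genes). Libraries of different numbers gave -0.07 to 0.03. With 3 libraries per group and values this small, the check cannot tell whether the numbers pair libraries. With the replicate number as a block 2156 genes were higher and 6344 lower, with 1 member higher and 8 lower. TPM keep no depth, so how far depth limits the low values of PIR and NFE2 is not known.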

Other observations

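By the 6-library profile of log2(TPM + 1), centred on each gene's own mean, the genes nearest to NFE2L2 among 14735 compared were DOCK1 (distance 0.0140), ARFGEF3 (0.0273) and PATL1 (0.0372). DOCK1, which encodes an activator of the GTPase RAC1, had 22.9 TPM in control and 13.4 in DCBQ, and PATL1, an mRNA decay factor gene, 146 and 87.3 TPM. The genes nearest to SRXN1 were ZFP41 (distance 0.0460), PPIB (0.0699) and MYL12A (0.0703). PPIB, a folding enzyme of the endoplasmic reticulum, had 847 TPM in control and 585 in DCBQ, and MYL12A, a myosin light chain gene, 338 and 228 TPM. The distances rest on 6 libraries in 2 groups, and the choice by profile fixes the direction of these genes.

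Noncoding targets of NRF2 were also measured. LUCAT1, a long noncoding RNA, rose 1.67-fold from 8.97 ± 1.6 to 15.0 ± 1.7 TPM (limma adjusted p = 0.0040). The pseudogene transcript NMRAL2P did not reach the filter, with 0.382 ± 0.26 TPM in control against 0.080 ± 0.079 in DCBQ.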
